A study of Mus musculus with 6 samples.

Results

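Immunoglobulin and plasma cell RNA was followed in mouse kidney through 5 genes, chosen by their symbols in the deposited matrices: Ighm, Igha and Igkc, which encode the constant regions of the IgM heavy chain, the IgA heavy chain and the kappa light chain, Jchain, which encodes the joining chain, and Mzb1, which encodes a chaperone of the endoplasmic reticulum in B cells and plasma cells. All 5 were found among 32285 genes. Sections of frozen kidney were profiled by Visium (10x Genomics), where every barcoded spot on the slide captures the RNA of the several cells above it, and captured molecules are counted by unique molecular identifiers (UMIs). There were 6 libraries, 1 for each group, so no difference below has a replicate check and no test of a condition was possible. The early treated and late treated 5m AS kidneys were Alport syndrome (AS) kidneys of genotype B6.Cg-Col4a5tm1Yseg, 5 months old by their titles, from mice given hEV treatment. Untreated kidneys of that genotype were 5m AS, at 5 months, and 2m AS, at 2 months. The mixed library held a heterozygous and a WT female together, of genotypes B6.Cg-Col4a5tm1Yseg and B6C57. The WT library had genotype B6C57. Alport syndrome is inherited and affects collagen IV in basement membranes, and Col4a5 is one of its genes. What early and late mean, how much hEV was given and when, and how old the WT mouse was are not given in the sources used here, so age and genotype cannot be told apart in a comparison with WT.

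Plasma cells devote most of their protein synthesis to 1 antibody. Each cell makes a single heavy chain class (IgM, IgG, IgA or IgE, after switching at the heavy chain locus) and a single light chain type, kappa or lambda. J chain is built into polymers of IgM and IgA and is what the polymeric immunoglobulin receptor, encoded by Pigr, recognises when antibody is carried across an epithelium. In kidney, plasma cells are known from the interstitium of inflamed tissue.

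The 6 libraries held between 1997 and 4093 spots and between 48940875 and 91976637 UMIs, and the median spot between 12736 and 28433 UMIs. Levels are UMIs summed over all spots of a library, as CPM of its scaled total (scaled CPM). Intervals in parentheses are 95% counting intervals, which leave out differences between animals and sections. All 6 sections carried the kidney markers Slc34a1 of the proximal tubule (2358 to 6946 scaled CPM) and Umod of the thick ascending limb (2214 to 4943 scaled CPM). Space Ranger 1.2.1 made the counts of 5m AS and WT, whereas 1.3.1 was used for the remaining 4 libraries. Where 2 libraries of unlike version are compared, version and group cannot be told apart. In summed sections, fewer cells of a type and less RNA per cell cannot be told apart.

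The antibody genes were low in 2m AS and WT, and stood far higher in early treated 5m AS, in untreated 5m AS and, to a lesser degree, in the mixed library. Together the 5 genes took 0.0624% of all UMIs in the early treated, 0.0137% in the late treated and 0.0537% in the untreated 5m AS library, 0.00380% in 2m AS, 0.0237% in the mixed library and 0.00353% in WT. The genes did not move as 1 block. IgM led in 5m AS, whereas IgA, and IgG genes outside the set, led in early treated 5m AS.

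**Figure D1:**
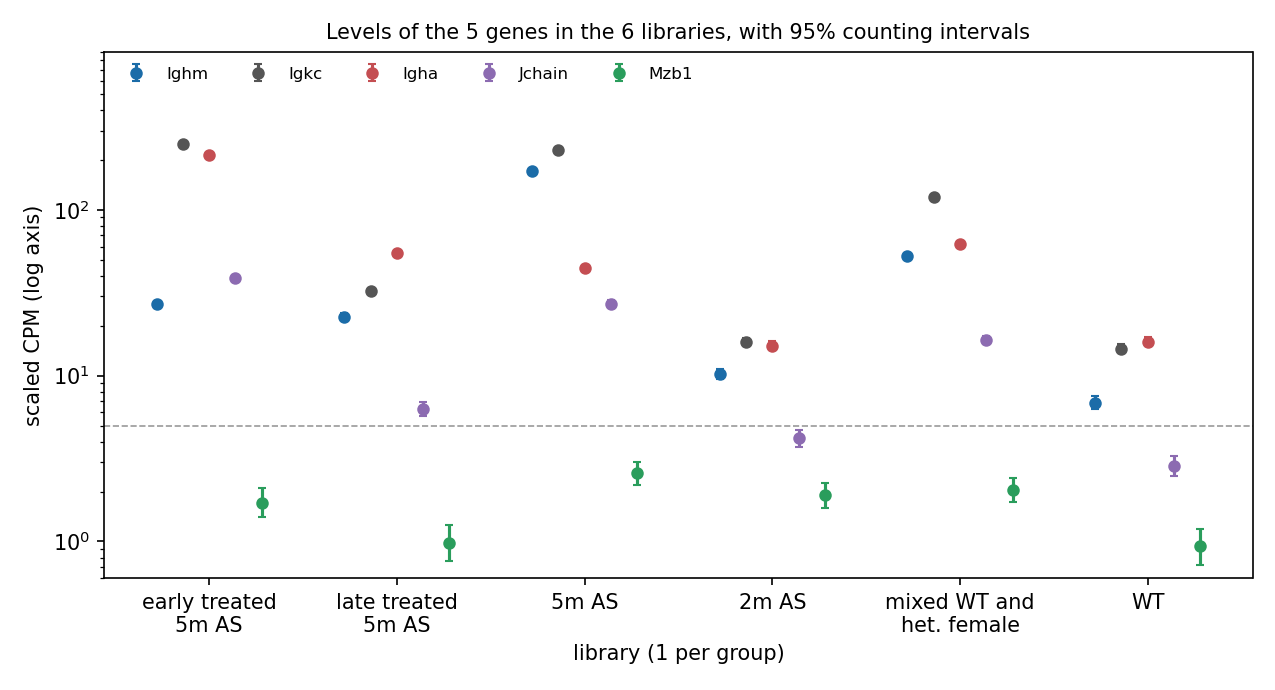
Scaled CPM (log axis) of Ighm, Igkc, Igha, Jchain and Mzb1 in each of the 6 libraries, with bars for 95% counting intervals of 1 library each and a dashed line at 5 scaled CPM. Ighm is highest in 5m AS at 171, Igha in early treated 5m AS at 214, and Mzb1 stays below the line in all 6 libraries.

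Ighm was at 27.0 scaled CPM in the early treated, 22.7 in the late treated and 171 in the untreated 5m AS library, 10.2 in 2m AS, 52.9 in the mixed library and 6.87 in WT. Ranked by level, no neighbouring libraries had overlapping counting intervals. Ighm thus stood apart in 5m AS, with the mixed library next and WT lowest. Igha was at 214 scaled CPM in the early treated, 55.0 in the late treated and 44.8 in the untreated 5m AS library, 15.2 in 2m AS, 62.2 in the mixed library and 16.0 in WT. Its highest library was early treated 5m AS, and 2m AS and WT, at the low end, had overlapping intervals.

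Igkc, the light chain gene that either class can be paired with, was at 248 scaled CPM in the early treated, 32.3 in the late treated and 229 in the untreated 5m AS library, 15.9 in 2m AS, 120 in the mixed library and 14.5 in WT. The intervals of 2m AS (15.0 to 16.9) and WT (13.6 to 15.4) overlapped, and those of other libraries next to each other in level did not. Jchain was at 38.6 scaled CPM in the early treated, 6.32 in the late treated and 27.1 in the untreated 5m AS library, 4.18 in 2m AS, 16.4 in the mixed library and 2.85 in WT. Igkc and Jchain had the same order of libraries, with early treated 5m AS first and WT last.

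Mzb1 was the rarest of the 5 genes and its range was narrow. It was at 1.72 scaled CPM in the early treated, 0.984 in the late treated and 2.58 in the untreated 5m AS library, 1.90 in 2m AS, 2.05 in the mixed library and 0.936 in WT. The 4 highest libraries overlapped from neighbour to neighbour, as did late treated 5m AS (0.761 to 1.25) and WT (0.721 to 1.195). It rested on 64 to 153 UMIs a library and never reached 5 scaled CPM, the level from which a gene counted as measured.

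In 5m AS against WT, 4 of the 4 measured members were at least 2-fold higher and none lower. Over all 11032 genes measured in this comparison 7.37% were called higher and 3.73% lower. Ighm was 24.9-fold higher (22.7 to 27.4), Igkc 15.8-fold (14.8 to 16.8), Jchain 9.498-fold (8.18 to 11.1) and Igha 2.80-fold (2.61 to 3.003). The increase was therefore uneven between the heavy chains. Without the 1% of spots richest in the 5 genes, Ighm was 12.8-fold and Igha 7.14-fold higher, which moved the heavy chains closer together. Against the mixed library in place of WT, Ighm kept a log2 ratio of 1.70 while Igha was lower, at -0.48. Both 5m AS and WT were counted with the same Space Ranger version.

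At 2 months, 0 of the 3 measured members were called higher or lower in 2m AS against WT, where 1.49% of all genes were called higher and 1.41% lower. Ighm had a ratio of 1.49 (1.32 to 1.67), Igkc of 1.10 (1.01 to 1.197) and Igha of 0.948 (0.871 to 1.03). With 1 library each, these ratios do not show that the kidneys were alike. In 5m AS against 2m AS, 4 of 4 measured members were higher, beside 8.85% of all genes called higher and 6.87% lower, with Ighm 16.8-fold (15.6 to 18.1), Igkc 14.3-fold, Jchain 6.48-fold and Igha 2.95-fold higher. In 2m AS 1 spot carried much of the IgA and J chain RNA, and without the single richest spot of each library the last 2 ratios were 10.2 for Jchain and 4.56 for Igha.

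In early treated against untreated 5m AS, the classes moved in opposite directions. Of the 4 measured members Igha was higher, 4.78-fold (4.59 to 4.99), and Ighm lower, with a ratio of 0.157 (0.149 to 0.166). Of all genes 1.09% were called higher and 1.51% lower. Igkc, with a ratio of 1.08 (1.06 to 1.11), and Jchain, with 1.43 (1.34 to 1.52), were within 2-fold. Kappa light chain RNA was thus at a like level in both libraries while the heavy chains differed.

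In late treated against untreated 5m AS, 3 of 4 measured members were lower and none higher, beside 3.97% of all genes called lower and 2.20% higher. Ighm had a ratio of 0.133 (0.126 to 0.1399), Igkc of 0.141 (0.135 to 0.148) and Jchain of 0.233 (0.209 to 0.260), whereas Igha was at 1.23 (1.17 to 1.29). Both treated libraries share the untreated 5m AS library as their control. In both, Ighm was lower than in the untreated kidney by a like factor, and the libraries differed in Igkc, Jchain and Igha. Early over late treated, Igkc was 7.67-fold (7.33 to 8.03), Jchain 6.12-fold (5.51 to 6.80) and Igha 3.90-fold (3.76 to 4.04) higher, and Ighm had a ratio of 1.19 (1.11 to 1.28). These were 3 of 4 measured members, beside 0.958% of all genes called higher and 0.359% lower.

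Against WT, 4 of 4 measured members were higher in early treated 5m AS, beside 5.02% of all genes called higher and 2.33% lower, with ratios of 3.93 for Ighm, 17.1 for Igkc, 13.4 for Igha and 13.5 for Jchain. In late treated 5m AS 4 of 4 were higher, beside 3.12% of all genes called higher and 2.56% lower, with ratios between 2.22 for Jchain and 3.43 for Igha. The mixed library had 4 of 4 higher too, beside 2.85% of all genes called higher and 3.08% lower, with ratios of 7.69 for Ighm, 8.27 for Igkc, 3.89 for Igha and 5.76 for Jchain. Set against the mixed library, late treated 5m AS had 3 members at least 2-fold lower (Ighm, Igkc and Jchain) and none higher. Of all 10942 genes measured there, 768 were called lower and 468 higher.

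The RNA lay in few spots. In 2m AS, 82.7% of all Igha UMIs were in the 33 spots (1%) with most of them, and the richest spot held 413 UMIs, 36.9% of the total. In the mixed library 34 spots held 81.2% of Igha UMIs and 73.3% of Ighm UMIs. In WT the 41 richest spots (1%) held 76.6% of Igha UMIs, with up to 170 in a spot. The share in the richest 1% for the median gene with at least 500 UMIs was between 5.62% and 8.15%.

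**Figure D2:**
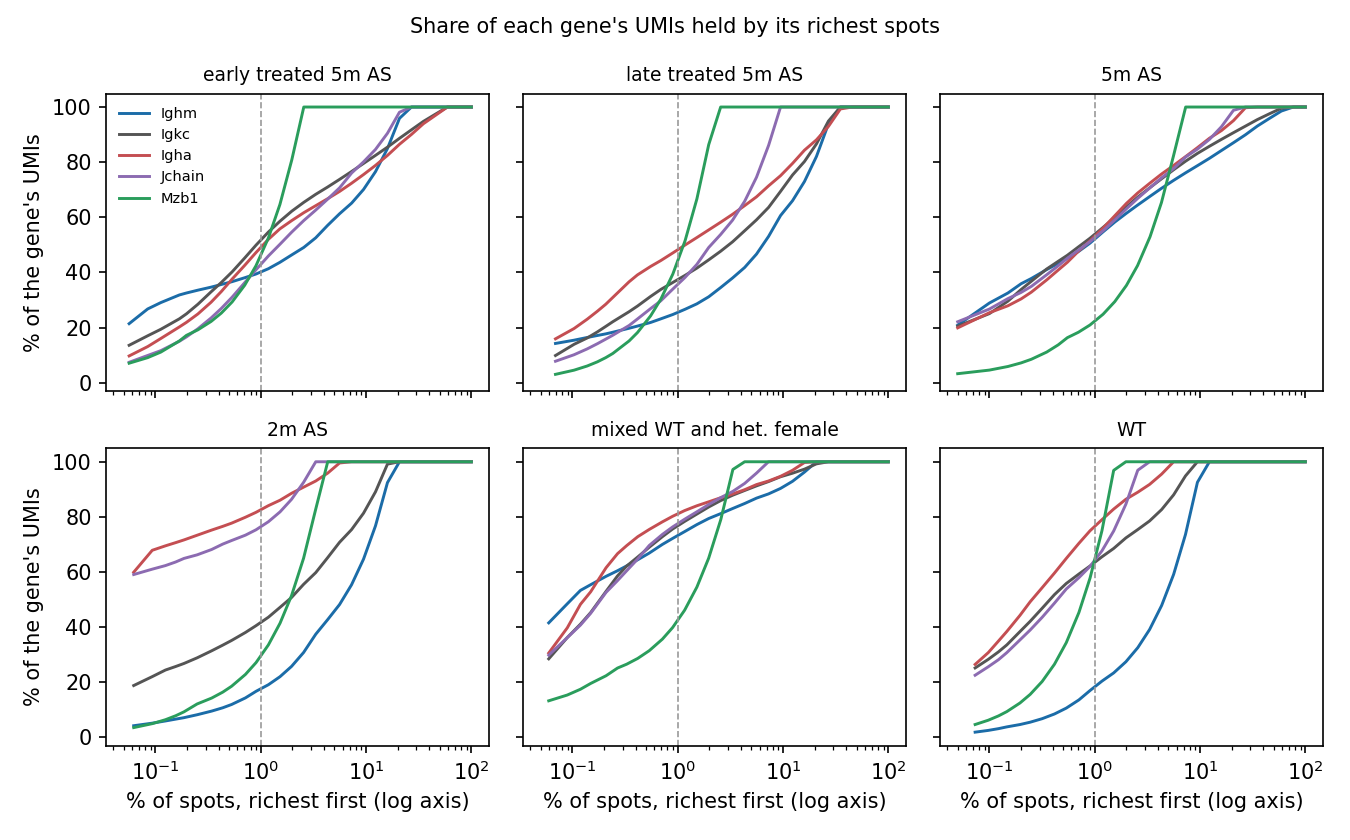
Share of each gene's UMIs (vertical axis, percent) held by the richest spots (horizontal axis, percent of spots on a log scale), in 1 panel per library, with a dashed line at 1% of spots. Curves that start high are concentrated, as for Igha in 2m AS (82.7% at the line), and the Ighm curve of WT (18.7% at the line) stays low.

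Ighm was more concentrated in 5m AS than in 2m AS or WT, with 52.0% of its UMIs in the richest 1% of spots in 5m AS, 17.8% in 2m AS and 18.7% in WT. In 5m AS it had a UMI in 66.7% of spots, where an even spread by spot depth would give 95.3%, and the richest spot held 2120 UMIs, 20.9% of the library's total. In 2m AS it was in 17.7% of spots beside 20.4% for an even spread, and its richest spot held 21 UMIs. In the mixed library 4 spots held 50% of the Ighm UMIs. In WT its 470 UMIs lay in 10.3% of spots (9.40 to 11.3) beside 10.7% for an even spread, and no spot held more than 3.

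Igha was patchy in all 6 libraries, by contrast. It had at least 1 UMI in 56.1% of spots in the early treated, 36.0% in the late treated and 27.3% in the untreated 5m AS library, 5.76% in 2m AS, 16.3% in the mixed library and 5.52% in WT. An even spread would give 85.2%, 64.0%, 68.8%, 28.4%, 63.9% and 22.9% in the same order. After each spot was thinned to 5000 UMIs the shares were 34.9%, 15.2%, 10.1%, 1.76%, 6.27% and 2.21%, again in that order, so early treated 5m AS stayed highest.

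The variance over spots in excess of counting noise, ranked among the 9258 to 9627 genes with at least 500 UMIs in a library, put Ighm, Igkc, Igha and Jchain within the first 15 places wherever they had enough UMIs, except Ighm in 2m AS at place 60. Igha held the first place in late treated 5m AS and WT. Jchain had 22.1% of its UMIs in 1 spot of 5m AS, with 355, and 50.3% in 1 spot of 2m AS, with 155. Jchain UMIs were seen in 21.9% of spots in the early treated, 9.34% in the late treated and 21.7% in the untreated 5m AS library, and in 2.71% in WT. Mzb1 had a UMI in 2.51% of spots in the early treated, 2.28% in the late treated and 6.96% in the untreated 5m AS library, 4.08% in 2m AS, 3.46% in the mixed library and 1.56% in WT. An even spread would give 2.73%, 2.25%, 7.32%, 4.24%, 4.14% and 1.55% in the same order, and the share was below it beyond counting error in the mixed library, where 1 spot held 14 of the 143 UMIs.

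Which antibody classes were present was read from all heavy chain constant genes, including those outside the set. UMIs count captured 3′ ends of molecules and carry no length term, so shares of UMIs are given. In early treated 5m AS IgG made up 49.0% (48.4 to 49.6) of heavy chain UMIs, IgA 45.2% and IgM 5.69%. In untreated 5m AS IgM made up 68.2% (67.5 to 69.0), IgA 17.8% and IgG 13.6%. IgA led in late treated 5m AS with 67.7%, in the mixed library with 48.5%, in 2m AS with 56.8% and in WT with 66.3%.

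**Figure D3:**
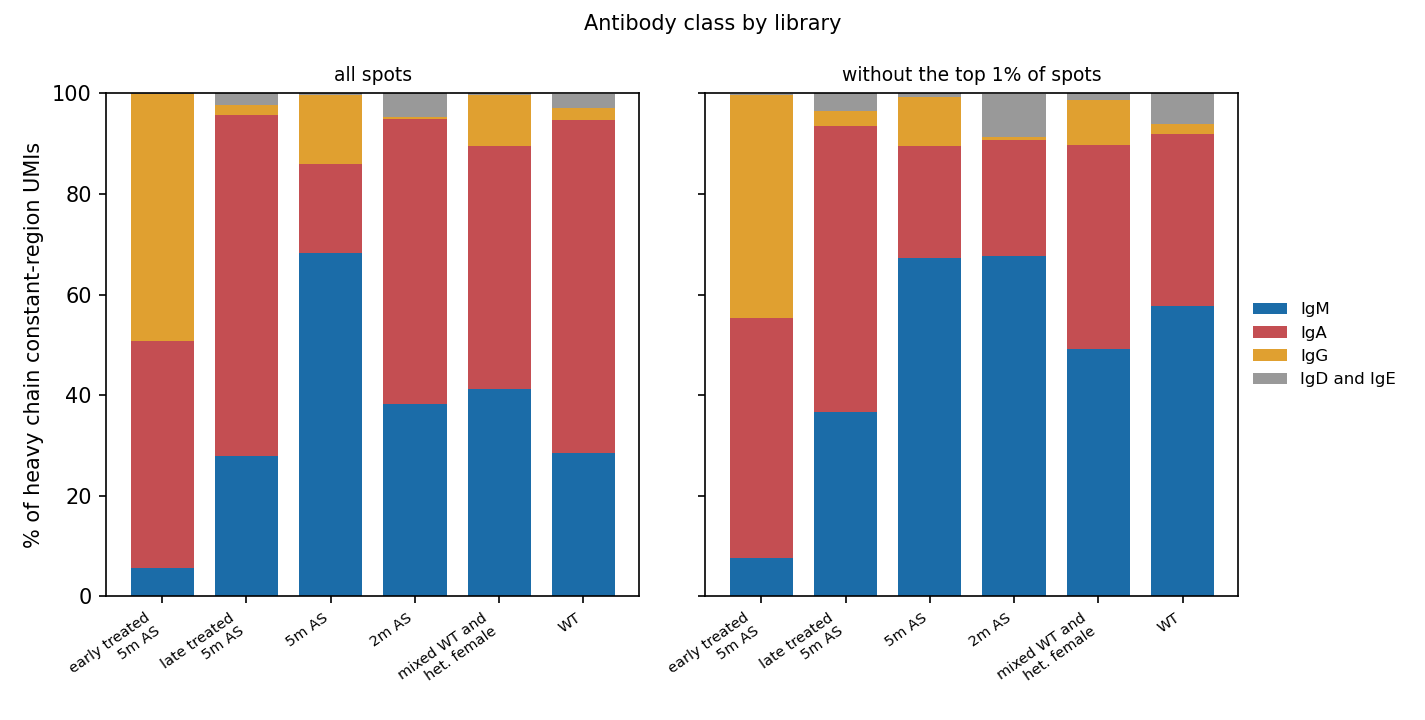
Share of heavy chain constant-region UMIs by class (stacked bars, percent), per library, over all spots on the left and without the 1% of spots richest in the 5 genes on the right. IgG, at 49.0% in early treated 5m AS, is 0.254% in 2m AS and 2.24% in WT, and without the richest spots IgM rather than IgA leads in 2m AS (67.6%) and WT (57.7%).

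IgG, the class that dominates switched responses in blood, was highest in early treated 5m AS. Ighg2b was at 114 scaled CPM in the early treated, 0.179 in the late treated and 10.2 in the untreated 5m AS library, and 0.541 in WT. Ighg2c was at 118 scaled CPM in the early treated, 0.194 in the late treated and 23.3 in the untreated 5m AS library, with 0 UMIs in WT. Ighg2b was 11.1-fold (10.2 to 12.1) and Ighg2c 5.05-fold (4.77 to 5.36) higher in early treated than in untreated 5m AS. Against a floor of 3 counts in WT, Ighg2c was at least 2684-fold higher in early treated 5m AS and at least 531-fold higher in untreated 5m AS. Ighg1 reached 1% of heavy chain UMIs in the mixed library alone, with 3.08%, where 1 spot held 238 of its 276 UMIs, and without the richest 1% of spots it was at 0.741%. Ighd, of naive B cells, was between 0.117% in early treated 5m AS and 4.72% in 2m AS.

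In several libraries the leading class depended on the richest spots. Without the 1% of spots richest in the 5 genes, IgM was ahead of IgA in 2m AS, with 67.6% and 23.2%, and in WT, with 57.7% and 34.3%. It was also ahead in the mixed library, with 49.1% and 40.7%. In early treated 5m AS IgA, at 47.8%, was then ahead of IgG, at 44.5%. IgM kept the lead in 5m AS with 67.2%, and IgA in late treated 5m AS with 56.9%.

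The ends of the secreted heavy chains are shown because they differ in what J chain binds. The last 60 coding bases before the stop codon are given from GENCODE M21 (GRCm38, the mm10 assembly), all on the minus strand of chromosome 12 within 1 exon: Ighm at chr12:113420870-113420929, Igha at chr12:113258771-113258830, Ighg2b at chr12:113306392-113306451 and Ighg2c at chr12:113287392-113287451. Capitals mark the cysteine codon that is last but one in the tailpiece of secreted IgM and IgA, through which J chain is bonded. The 2 IgG genes end without it.
Ighm: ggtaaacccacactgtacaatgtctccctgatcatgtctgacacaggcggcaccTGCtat
Igha: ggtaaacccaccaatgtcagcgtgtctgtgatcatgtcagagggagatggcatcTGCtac
Ighg2b: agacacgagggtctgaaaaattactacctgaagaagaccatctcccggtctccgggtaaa
Ighg2c: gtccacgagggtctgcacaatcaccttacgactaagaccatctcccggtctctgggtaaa
Over the whole coding sequence Ighg2b and Ighg2c were 85.9% identical, against 51.7% for Ighm and Igha. Some reads may match both IgG genes, how the counting treated such reads was not checked, and their values apart are uncertain. Of 61 spots of early treated 5m AS with at least 20 IgG UMIs, 6 had at least 90% Ighg2b and 17 at least 90% Ighg2c. The coding windows describe the genes, while the captured reads lie towards the 3′ ends.

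Immunoglobulin-rich spots were defined as those with at least 20 heavy chain UMIs, a number chosen after the values were seen. There were 144 among 3549 (4.06%) spots in the early treated, 25 among 2892 (0.864%) in the late treated and 96 among 1997 (4.81%) in the untreated 5m AS library, 4 among 3212 in 2m AS, 48 among 3352 (1.43%) in the mixed library and 11 among 4093 (0.269%) in WT. They held 65.3%, 35.5%, 69.3%, 39.7%, 75.3% and 34.1% of the heavy chain UMIs in the same order. With each spot thinned to 5000 UMIs and a bound of 5 heavy chain UMIs, the shares were 6.60%, 1.21%, 4.61%, 0.163%, 1.65% and 0.273%, so early treated 5m AS rather than 5m AS was then highest. Outside the rich spots, the unscaled CPM of heavy chain genes was 204 in the early treated, 62.0 in the late treated and 92.5 in the untreated 5m AS library, 12.9 in 2m AS, 30.1 in the mixed library and 13.7 in WT. The 3 libraries of 5-month kidneys and the mixed library were thus also above WT outside the rich spots. The bound of 20 is a raw count, so more antibody RNA can stay outside where spots are shallow. Other spots of early treated 5m AS had a median of 12681 UMIs, and the part of depth was not tested.

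Rich spots often held 1 class, though less so in untreated 5m AS and the mixed library. At least 90% of heavy chain UMIs were of 1 class in 108 of 144 rich spots of early treated, 21 of 25 of late treated and 55 of 96 of untreated 5m AS, 4 of 4 of 2m AS, 27 of 48 of the mixed library and 11 of 11 of WT. All 11 in WT were led by IgA. Of the 36 spots of early treated 5m AS below 90%, IgA led and IgG came second in 21, and IgG led and IgA came second in 13. Of the 41 such spots of untreated 5m AS, IgM led and IgG came second in 36. With IgM and IgA as the leading pair, IgA led in 1 spot of early treated, 2 of late treated and 3 of untreated 5m AS, and in 2 of the mixed library. IgM led with IgA second in 2 spots of untreated 5m AS and 4 of the mixed library. From 10 or from 50 heavy chain UMIs in place of 20, the share of single-class spots in early treated 5m AS was 50.4% and 86.1%. It was 55.2% and 65.8% in untreated 5m AS, and 48.8% and 61.9% in the mixed library.

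**Figure D4:**
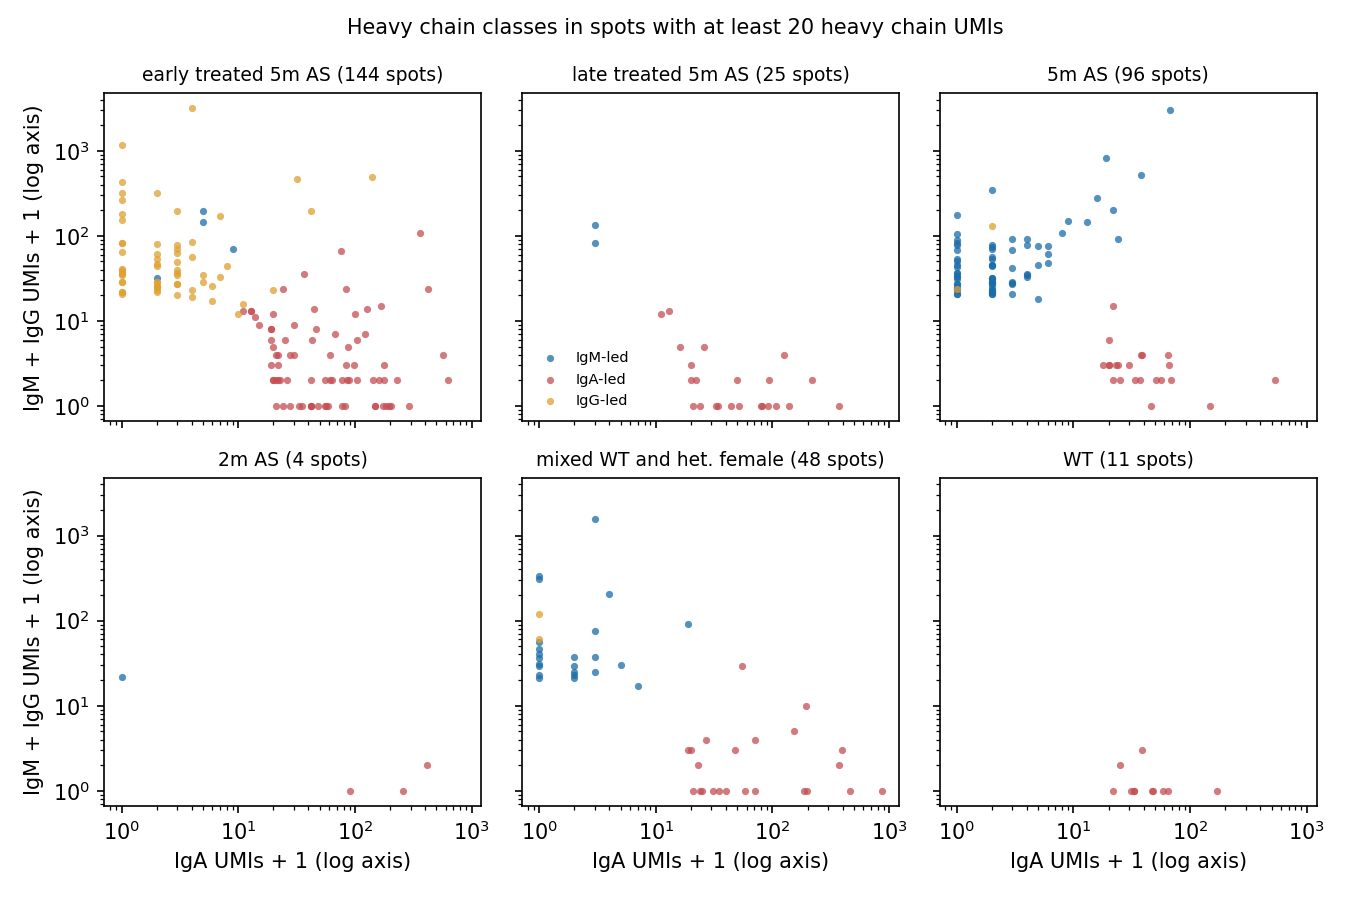
Each point is a spot with at least 20 heavy chain UMIs, with its IgA UMIs plus 1 (horizontal) and its IgM and IgG UMIs plus 1 (vertical), both on log axes, coloured by the leading class, in 1 panel per library. Many spots lie towards the lower right, led by IgA, or the upper left, led by IgM or IgG. Others lie between, as in early treated 5m AS, where 21 IgA-led spots below 90% have IgG second and 13 the reverse. The vertical axis adds IgM and IgG, so a mix of IgM and IgG within a spot does not show. The 11 spots of WT are all led by IgA.

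The single richest spots show how local the RNA was. The richest spot of early treated 5m AS held 2107 Ighg2b and 1034 Ighg2c UMIs beside 8 Ighm and 3 Igha, with 1355 Igkc and 91 Jchain, and antibody genes made up 42.6% of its RNA. In untreated 5m AS the richest spot held 2120 Ighm, 511 Ighg2c, 362 Ighg2b and 66 Igha UMIs, with 2779 Igkc and 355 Jchain UMIs, and antibody genes made up 17.2% of its RNA. In the mixed library the richest spot held 1217 Ighm, 238 Ighg1 and 88 Ighg2b UMIs, with both 1148 Igkc and 667 lambda UMIs, and 14 of the 143 Mzb1 UMIs of the library. The richest spots of late treated 5m AS and WT were IgA spots, with 370 Igha and 125 Igkc UMIs in late treated 5m AS and 170 Igha and 168 Igkc UMIs in WT.

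Light chains were read from Igkc and the 3 lambda genes. Lambda made up 15.3% of light chain UMIs in the early treated, 14.4% in the late treated and 1.31% in the untreated 5m AS library, 53.4% in 2m AS, 17.6% in the mixed library and 33.2% in WT. In 2m AS this came largely from 1 spot, which held 844 of the library's 1120 Iglc1 UMIs with 4 Igkc UMIs, 413 Igha and 155 Jchain UMIs. Without the richest 1% of spots lambda made up 39.2% in 2m AS. Of spots with at least 20 light chain UMIs, at least 90% were kappa or lambda alone in 94 of 103 in the early treated, 14 of 16 in the late treated and 86 of 86 in the untreated 5m AS library, 6 of 6 in 2m AS, 41 of 52 in the mixed library and 11 of 11 in WT. Lambda led in 12, 2, 0, 2, 4 and 3 of these in the same order. In WT the 3 lambda spots held 104, 82 and 87 Iglc1 UMIs beside 2, 1 and 0 Igkc UMIs, and 63, 57 and 47 Igha UMIs.

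The last 90 coding bases of the 3 lambda genes are shown because Iglc2 and Iglc3 can hardly be told apart, whereas Iglc1 can. They are from GENCODE M21 (GRCm38), on the minus strand of chromosome 16: Iglc1 at chr16:19061755-19061844, Iglc2 at chr16:19198539-19198628 and Iglc3 at chr16:19065368-19065457. Capitals mark bases that differ from Iglc1.
Iglc1: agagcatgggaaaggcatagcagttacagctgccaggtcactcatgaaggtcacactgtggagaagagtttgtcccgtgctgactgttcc
Iglc2: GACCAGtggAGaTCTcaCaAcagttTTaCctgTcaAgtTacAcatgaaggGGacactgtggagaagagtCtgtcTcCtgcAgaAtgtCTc
Iglc3: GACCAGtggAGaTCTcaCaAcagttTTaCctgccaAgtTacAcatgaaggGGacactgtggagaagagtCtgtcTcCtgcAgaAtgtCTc
Within this window Iglc2 differed from Iglc1 at 29 bases and Iglc3 at 28, and over the coding sequence Iglc2 and Iglc3 were 96.2% identical. Iglc1 made up at least 90% of lambda UMIs in all 12 spots of early treated 5m AS and all 3 of WT with at least 20 lambda UMIs, in both of 2m AS, in 5 of 7 of the mixed library and not in the 1 of untreated 5m AS. The split of the remaining counts between Iglc2 and Iglc3 is uncertain.

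J chain RNA per heavy chain UMI differed between classes within early treated and within untreated 5m AS. In single-class spots of early treated 5m AS there were 16.8 Jchain UMIs per 100 heavy chain UMIs where IgM led (13.0 to 21.5, 3 spots), 10.6 where IgA led (9.79 to 11.4, 57 spots) and 4.65 where IgG led (4.203 to 5.14, 48 spots). In those of untreated 5m AS there were 9.05 where IgM led (7.996 to 10.2, 34 spots), 17.8 where IgA led (15.6 to 20.2, 19 spots) and 1.96 where IgG led (0.404 to 5.73, 2 spots). IgG spots had the fewest J chain UMIs per heavy chain UMI in both libraries. The counts of spots are small for IgM in early treated 5m AS and for IgG in untreated 5m AS. Without the richest spot of each class, early treated 5m AS had 10.4 for IgA and 5.70 for IgG, and untreated 5m AS had 20.2 for IgA and 0 for IgG. IgM and IgA did not keep 1 order between these libraries. In late treated 5m AS the intervals of IgM (2.48 to 8.91, 2 spots) and IgA (4.63 to 7.03, 19 spots) overlapped. In WT all single-class spots were of IgA.

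**Figure D5:**
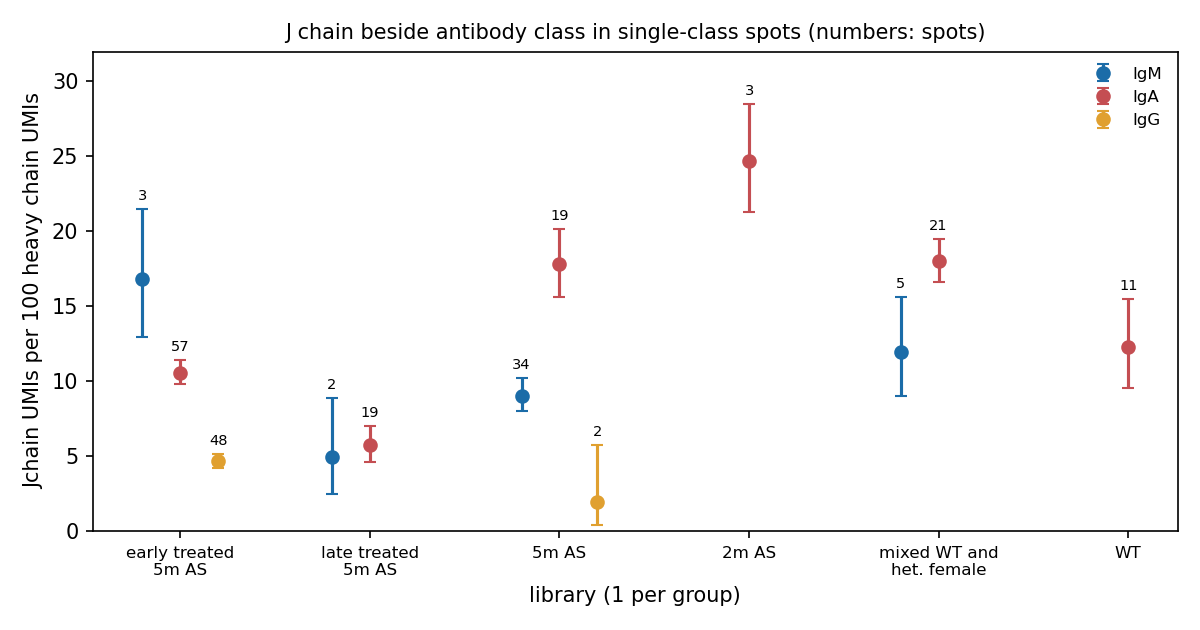
Jchain UMIs per 100 heavy chain UMIs (vertical axis) in spots with at least 90% of 1 class, per library and class, with 95% counting intervals and the number of spots above each point; classes with 1 spot are left out. IgG is lowest in early treated 5m AS (4.65) and untreated 5m AS (1.96), and late treated 5m AS has low values for IgA (5.74) and IgM (4.98).

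The ratio also differed between libraries for the same class. In IgA spots there were 10.6 Jchain UMIs per 100 heavy chain UMIs in the early treated, 5.74 (4.63 to 7.03, 19 spots) in the late treated and 17.8 in the untreated 5m AS library, 24.7 in 2m AS (3 spots), 18.0 in the mixed library and 12.3 in WT (9.54 to 15.5, 11 spots). Late treated 5m AS was lowest and its interval did not overlap that of WT, but these counting intervals leave out differences between spots. Without the richest IgA spot, late treated 5m AS had 6.95 and WT 9.92. The value of 2m AS rests on 1 spot, and without it there were 9.51. In late treated 5m AS light chains were scarce beside heavy chains too, with 0.371 light chain UMIs per heavy chain UMI in IgA-led rich spots. The value was 0.759 in early treated and 1.18 in untreated 5m AS, 1.42 in 2m AS, 1.32 in the mixed library and 1.11 in WT.

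In 5m AS the 20 richest Ighm spots held 48.1% of the Igkc and 43.9% of the Jchain UMIs, and 8.25% of the Igha UMIs. The 20 richest Igha spots held 25.6% of the Ighm UMIs, but few spots made up most of that share. Of these 2602 Ighm UMIs, 2120 lay in 1 spot with 66 Igha UMIs, and 370 in another with 37. In WT the 41 richest Ighm spots held 4.03% of the Igkc UMIs, whereas the 41 richest Igha spots held 54.2%. Pearson's r over spots of log2(counts per 10000 + 1), as a description of spots that share a library and its depth, was 0.609 between Igkc and Jchain over the 3549 spots of early treated 5m AS and 0.744 over the 1997 of untreated 5m AS. Between Igha and Ighm it was 0.0617 in early treated and 0.137 in untreated 5m AS.

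Several B lineage genes were higher in the rich spots. The genes of this paragraph were picked from the lists after their values were seen. Mzb1, in unscaled CPM, was 11.4-fold (7.38 to 17.4) higher in rich than in other spots of early treated 5m AS, 5.32-fold (3.59 to 7.74) in untreated 5m AS and 25.5-fold (17.3 to 36.9) in the mixed library. Pou2af1, a coactivator of B cell and plasma cell transcription, was 32.5-fold, 21.1-fold and 22.3-fold higher in these libraries in that order, on 17, 17 and 4 UMIs in rich spots. Cd79a, of the B cell receptor, was 13.5-fold, 5.64-fold and 14.9-fold higher. Xbp1, the regulator of the secretory programme that tubule cells also express, had ratios of 1.11, 0.923 and 1.17.

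Macrophage genes were not higher in the rich spots of every library. The 10 macrophage genes, summed, had a ratio of rich to other spots of 1.22 (1.17 to 1.26) in the early treated, 2.29 (2.14 to 2.45) in the late treated and 0.878 (0.849 to 0.907) in the untreated 5m AS library, and 1.88 (1.72 to 2.04) in the mixed library. Fibroblast markers had 1.25, 2.71, 1.15 and 1.91 in the same order, and proximal tubule markers 0.896, 0.899, 0.809 and 0.851. In 2m AS, with 4 rich spots, the ratio was 1.67 (1.10 to 2.43) for macrophage genes and 4.205 (3.10 to 5.58) for fibroblast markers, and in WT, with 11, it was 0.867 (0.616 to 1.19) and 0.762 (0.380 to 1.36). Median depth differed too, with 33929 UMIs in rich and 25673 in other spots of 5m AS, and the part of depth and of these markers in the contrast was not tested.

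Among the other plasma cell genes that reached 5 scaled CPM few followed the members. Of 14 in the list, 7 were measured in 5m AS against WT, 1 higher and none lower, beside 7.37% and 3.73% of all genes, with a median log2 ratio of 0.18 beside -0.12 over all genes measured. The 1 was Sdc1, which encodes the plasma cell surface proteoglycan CD138 and is also made by epithelium, at 51.7 scaled CPM in 5m AS and 14.0 in WT. Its level in the rich spots of 5m AS was 0.976 times that of other spots. Eaf2 was the lowest, with a ratio of 0.802. In late treated against untreated 5m AS 2 of 7 were lower, beside 3.97% of all genes: Creld2, a chaperone of the endoplasmic reticulum, at 25.7 and 109 scaled CPM, and Sdc1 at 16.7 and 51.7. In early treated against untreated 5m AS Sdc1 was the 1 lower of 7 measured, with a ratio of 0.427, and none was higher. Of all genes 1.51% were called lower and 1.09% higher in that comparison. Fkbp11 had the highest ratio, 1.27. None of the 14 B cell genes reached 5 scaled CPM in any library.

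Of 13 genes for signals that draw or sustain B lineage cells, 7 were measured in 5m AS against WT, 2 higher and 1 lower, beside 7.37% and 3.73% of all genes. Tnfsf13b, which encodes the survival factor BAFF, was at 14.9 scaled CPM in 5m AS and 1.62 in WT, 9.16-fold higher (7.51 to 11.3), and Ltb was 4.74-fold higher. Ccl28, a chemokine for IgA plasma cells, was the 1 lower gene, at 2.29 in 5m AS and 6.19 in WT. Cxcl13, a B cell chemokine, was at 6.54 scaled CPM in the early treated, 8.55 in the late treated and 1.75 in the untreated 5m AS library. It was 3.73-fold higher in early treated and 4.88-fold higher in late treated than in untreated 5m AS. Tnfsf13b had a ratio of 0.481 in late treated and 0.710 in early treated against untreated 5m AS.

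Of the genes for antibody transport and Fc receptors, 4 of 7 measured were higher in 5m AS against WT and none lower, beside 7.37% of all genes called higher and 3.73% lower. Fcgr1, the high-affinity IgG receptor of macrophages, was 7.84-fold higher (6.37 to 9.73) and Fcgr3 6.41-fold. Pigr, of epithelium, was at 101 scaled CPM in 5m AS and 84.6 in WT, and Fcgrt, the neonatal Fc receptor that is high in podocytes and proximal tubule, at 196 and 276. In late treated against untreated 5m AS 3 of 7 were lower, beside 3.97% of all genes, with Fcgr3 at a ratio of 0.396 and Fcgrt at 0.994. In early treated against untreated 5m AS none of 7 passed 2-fold, beside 1.09% of all genes called higher and 1.51% lower. Fcgr1 had the lowest ratio there, 0.521.

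In 5m AS against WT, 10 of 10 macrophage genes and 6 of 6 measured class II and dendritic genes were higher, beside 7.37% of all genes, with Lyz2 23.1-fold and Cd74 4.74-fold. In early treated against untreated 5m AS 1 of 10 macrophage genes was lower, Csf1r with a ratio of 0.493, and none higher, beside 1.51% of all genes called lower, and the median log2 ratio was -0.78 beside -0.01 over all genes. In late treated against untreated 5m AS 7 of 10 were lower, beside 3.97% of all genes. C1qb had the lowest ratio, 0.406, and the median log2 ratio was -1.06 beside -0.03 over all genes. Of 10 T cell genes 1 was measured in 5m AS against WT, Trbc2, which was 2.88-fold higher.

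Variable region genes gave almost no counts. The 348 rows for Ighv, Igkv and Iglv genes held 131 UMIs in early treated 5m AS, the most, and 1 UMI in WT, the fewest. Constant genes had 44220 UMIs in early treated 5m AS and 3136 in WT. Iglv1 led in 5 of the 6 libraries, with 105 of the 131 UMIs in early treated 5m AS. With so few UMIs, variable genes are not compared between spots or libraries.

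The genes most like the 5 over spots were taken among 10663 with at least 200 UMIs in every library, leaving out immunoglobulin genes. They were Apoe, Lyz2, Tmsb4x, Cd74, H2-Aa, Mgp, Cst3, Serping1, Cd52 and Vim. Their mean r over the 6 libraries was between 0.125 and 0.146, which is weak, and single libraries gave between -0.0159 and 0.262. Over the 6 libraries as points, Brwd1 was the gene most like Igkc, with r = 0.990 in log2(scaled CPM + 0.1), although its level ranged only from 23.1 to 25.8 scaled CPM. The next were Taf4, 1810055G02Rik, Sdf2l1, Endod1, Pxdc1, Plaur, Cyp20a1, Lrch3 and Rasl11b. These genes were picked as the highest of 11392, of which 125 reached 0.9, and r over 6 points is imprecise. Sdf2l1, of the endoplasmic reticulum chaperone complex, ranged from 6.25 to 27.0 scaled CPM, r = 0.979.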

How the data were processed

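Visium sections of 6 mouse kidneys or kidney pairs were analysed, 1 library for each group, grouped by their sample titles. The deposited values are whole-number UMI counts per gene and spot, made with Space Ranger 1.2.1 or 1.3.1, per the file headers, on mm10, per the submitters' processing notes. All listed spots were used, and spot positions were not used here. Visium slides share barcodes by design: the 19095 spots had 4922 distinct barcodes. Counts were summed over spots and scaled by TMM in edgeR 4.0.16 (R 4.3.3). Spots were analysed in Python 3.11.15 with numpy 2.4.6, pandas 2.3.3 and scipy 1.17.1.

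A gene counted as measured if either library of a comparison had 5 scaled CPM or more, and was called higher or lower from a 2-fold difference. Intervals are exact 95% intervals for a ratio of Poisson counts or for a binomial share (Clopper-Pearson) and cover counting error only. The floor of 3 counts stood between 0.0407 and 0.0521 scaled CPM. With 1 library a group no test was made. The scripts were tested on simulated data. Shares after thinning leave out spots under 5000 UMIs.

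The 5 genes, the 7 gene lists and the marker sets were chosen with earlier results of these data known. Genes named from a list are those with the largest and smallest ratio in 5m AS against WT and in each treated library against 5m AS. Others named (Creld2 beside Sdc1, Irf4, Derl3, Tnfrsf13b, Prdm1, Ltb, Fcgr3, Pigr, Cd74 and the genes compared between rich and other spots) were picked after their values were seen. Ccl19 and Ccl21a were left out because each symbol has more than 1 row. Sequences and gene positions came from GENCODE M21 (GRCm38). Alternatives were other scalings (plain CPM, DESeq2 1.42.0 size factors, no mitochondrial genes), equal weight for each spot, spots of at least 500 UMIs, no spots of the richest 1%, other filters and folds, the mixed library in place of WT, a top 5% of spots and thinning. Leaving out the single richest spot and other bounds for rich spots were added after seeing the data. Results for some genes are not reported here.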

Additional observations from a re-analysis of the deposited data

Results flagged for a closer look

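Igkc and Jchain had ratios on opposite sides of 1 in the treated libraries, each set against the same untreated 5m AS library, and neither passed 2-fold in early treated 5m AS. For Igkc the ratio was 1.08 in early treated 5m AS and 0.141 in late treated 5m AS. For Jchain it was 1.43 in early treated 5m AS and 0.233 in late treated 5m AS. The difference was not tested, since each group was 1 library.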

How the results depend on the processing

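The reference library mattered most. With the mixed library in place of WT, 4 members were called in 2m AS, all lower, against 0 with WT. In 5m AS 1 was called, against 4, and in late treated 5m AS 3 were called, all lower, against 4 higher with WT. Of all genes, 299 of 10674 were called higher and 205 lower in 2m AS against the mixed library. The counts were 831 higher and 586 lower of 11123 in 5m AS, and 468 higher and 768 lower of 10942 in late treated 5m AS. Log2 ratios turned to -0.48 for Igha in 5m AS and to -0.97 for Ighm in early treated 5m AS, and in late treated 5m AS to -1.22 for Ighm, -1.89 for Igkc, -0.18 for Igha and -1.38 for Jchain. The cause was not tested. With no filter on low levels 1 member was called in 2m AS against WT, Mzb1, beside 2537 of 20713 genes called higher and 1767 lower.

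Of the 28 called ratios, 0 changed sign or fell below 2-fold under the other scalings, equal spot weights, spots of at least 500 UMIs, or without the richest 1% of spots or the single richest spot. Equal weights moved 11 of them by over 1.5 times, leaving out the richest 1% moved 13, and leaving out the richest spot moved 2. Without the richest 1%, the mixed library over WT had 2.67 for Ighm, against 7.69, and early treated 5m AS over WT had 30.3 for Igha, against 13.4. Plain CPM moved the median log2 ratio of all genes in 5m AS against WT to 0.29, against -0.12, and the calls to 1355 higher and 151 lower, against 813 and 411.

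No paired analysis was possible because each group was 1 library, and for the same reason no fit without a replicate exists. Mzb1 rested on 64 to 153 UMIs a library, which limits its precision.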
